A study of Homo sapiens with 18 samples.

Results

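The ERK pathway feedback genes described here were 10 listed genes out of the 58884 gene identifiers counted: the dual-specificity phosphatases DUSP1, DUSP4, DUSP5 and DUSP6, the Sprouty genes SPRY2 and SPRY4, SPRED1, the ETS factors ETV4 and ETV5, and PHLDA1. They were listed by name, and they and the gene lists used below were chosen with earlier results of these data known. Counts of these genes beside the share of all genes are therefore descriptions and not tests. All 10 had enough reads to be tested in every comparison. RNA was sequenced from T47D cells, an estrogen receptor-positive luminal breast cancer line, after 48 hours with niraparib or olaparib at 10 μmol/L or with the vehicle DMSO. The line labelled T47D AAV has the genotype WT, and the line labelled T47D JL has the genotype PARP1 KO, a knockout of PARP1, the main enzyme that both drugs inhibit. Each of the 6 groups of genotype and treatment had 3 libraries, 18 in all. The design asked what both drugs do with and without PARP1. Only 1 knockout line was sequenced, so loss of PARP1 and any other difference between the lines cannot be told apart.

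The ERK pathway carries growth factor signals from receptors at the membrane through RAS, RAF and MEK to the kinase ERK, which enters the nucleus and switches on transcription. Among the genes that active ERK induces are its own brakes. Dual-specificity phosphatases remove the activating phosphates from ERK, and some of them also act on the stress kinases JNK and p38. Sprouty and SPRED proteins restrain the pathway higher up, at the level of receptors, RAS and RAF. ETV4 and ETV5 are transcription factors induced by ERK, and PHLDA1 is often read with them as a sign of how active the pathway is.

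Library totals ran from 28890837 to 52251288 counts. PARP1 itself had 337 ± 26.95 CPM (counts scaled to library size; SD, n = 9) in the WT libraries and 25.1 ± 1.38 CPM (n = 9) in the PARP1 KO libraries, and no library of one genotype lay in the range of the other. In 3 groups 1 library stood apart by the chi-square per gene between pairs of libraries: WT DMSO replicate 1 (17.3 and 15.9, against 3.14 for the other pair), WT niraparib replicate 2 (11.2 and 15.3, against 3.24) and PARP1 KO niraparib replicate 3 (10.7 and 13.4, against 3.002). The pairs ran from 3.01 to 9.68 in PARP1 KO DMSO and from 7.53 to 16.6 in PARP1 KO olaparib. Each of the 3 libraries named had the highest DUSP6 level of its group, and calls that change without them are given beside the results. The luminal markers ESR1, PGR, GATA3, FOXA1, KRT8, KRT18, KRT19 and EPCAM were all expressed, with medians from 159 to 3549 CPM. The basal keratins KRT5 and KRT14, the endothelial gene PECAM1, the T cell gene CD3E and the fibroblast gene PDGFRB had medians of 0. TP63 had a median of 1.60 CPM, and COL1A2, VWF, PTPRC and CD14 were below it. COL1A1, a collagen gene also listed as a fibroblast marker, had a median of 104 CPM.

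In WT cells, niraparib raised DUSP1, DUSP5 and SPRY4 and lowered DUSP4 and PHLDA1. A call needed a change of over 1.5-fold and an adjusted P value under 0.05. By this rule 5 of the 10 genes were called, where 13.8% of all 22446 genes tested were called. Of these, 3 were higher and 2 lower, beside 8.1% and 5.72% of all genes. The median log2 fold change of the 10 genes was 0.13, beside -0.025 over all genes tested, and 6 of the 10 values were above 0. The median of the 10 turned on single libraries: it was 0.050 without WT DMSO replicate 2, and 0.26, 0.028 and 0.059 without WT niraparib replicates 1, 2 and 3. In 7 of the 10 genes the niraparib and DMSO libraries did not overlap, which was also the case for 46.7% of all genes tested. In PARP1 KO cells with niraparib, 1 of the 10 was called, DUSP1, where 0.0136% of 22037 genes were called (3 genes). With these bulk libraries, a change in RNA per cell and a change in the share of cells that express a gene cannot be told apart.

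**Figure D1:**
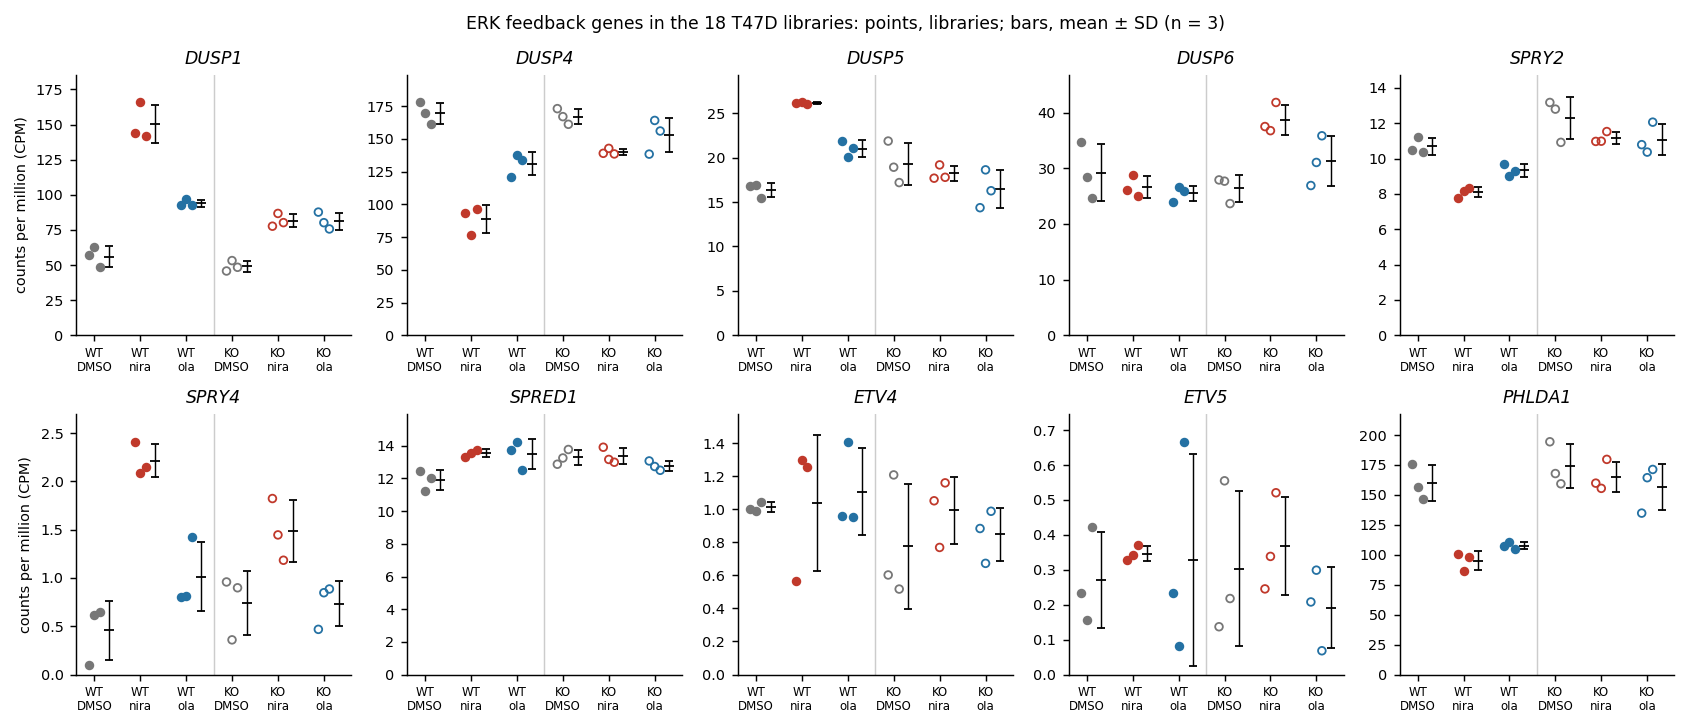
CPM (vertical axis, linear from 0, a separate scale in each panel) of the 10 genes in each library, by genotype and treatment (horizontal axis; filled points WT, open points PARP1 KO; black bars, mean ± SD of 3 libraries). In WT, the 3 niraparib libraries of DUSP1 lie between 142 and 166 CPM, above all other libraries, and those of DUSP4 lie between 76.7 and 96.1 CPM, below all others.

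Per kilobase of exon, the level in WT DMSO libraries was highest for DUSP1, at 27.8 ± 3.61 CPM per kilobase (SD, n = 3), followed by DUSP4 at 23.3 ± 1.11 and PHLDA1 at 19.8 ± 1.88. The libraries of DUSP1 and DUSP4 overlapped on this scale, so their order was not resolved. DUSP6 at 7.57 ± 1.33 and DUSP5 at 6.47 ± 0.315 CPM per kilobase also overlapped, and SPRY2 at 3.33 ± 0.149 and SPRED1 at 1.53 ± 0.0794 came next. ETV4 at 0.288 ± 0.00877, SPRY4 at 0.0695 ± 0.0470 and ETV5 at 0.0469 ± 0.0239 CPM per kilobase were the lowest, and the last 2 overlapped. With niraparib in WT, DUSP1 stood at 74.7 ± 6.61 CPM per kilobase and DUSP4 at 12.2 ± 1.45, and their libraries no longer overlapped.

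DUSP1, also called MKP-1, is a nuclear phosphatase that acts on p38 and JNK as well as ERK and is itself a fast-responding gene. DUSP1 (ENSG00000120129) is encoded on the minus strand of chromosome 5, GRCh38 bases 172768096 to 172771195. Its promoter is shown because DUSP1 was the only one of the 10 genes called with both drugs in both genotypes. The 250 bases before the RefSeq start (chr5:172771196-172771445 of GRCh38.p14, minus strand, 5′ to 3′) are given with matches to TGACG, the core of the cAMP response element (CRE), in either orientation, in capitals.
DUSP1: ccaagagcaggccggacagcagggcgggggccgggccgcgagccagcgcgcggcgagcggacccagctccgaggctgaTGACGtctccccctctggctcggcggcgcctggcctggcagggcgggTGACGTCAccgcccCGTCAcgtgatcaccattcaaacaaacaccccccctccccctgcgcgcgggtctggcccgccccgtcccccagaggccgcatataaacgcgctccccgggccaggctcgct
The window holds 4 matches, at positions -172, -125, -122 and -111 from the start, and the middle pair overlap as TGACGTCA. Of 35116 promoters in the RefSeq table, each 250 bases before to 50 bases after a start, 24.6% hold at least 1 such match on either strand and 0.313% hold at least 4. The ETS motif CCGGAAG, the AP-1 motif TGANTCA and the serum response element had no match in the DUSP1 promoter. A match describes the letters of this window and is not evidence of binding.

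DUSP1 had 57.02, 62.7 and 48.3 CPM in the WT DMSO libraries, 144, 166 and 142 with niraparib and 92.4, 96.8 and 92.8 with olaparib. The 3 groups did not overlap, with niraparib highest and DMSO lowest. The log2 fold change was 1.42 (SE 0.089, adjusted P = 9.3e-08, edgeR) with niraparib, a 2.68-fold rise, and 0.75 (SE 0.089, adjusted P = 1.2e-04, edgeR) with olaparib. Niraparib exceeded olaparib by 0.67 (SE 0.087, adjusted P = 7.6e-05, edgeR) on the log2 scale. In PARP1 KO cells DUSP1 had 45.7, 53.1 and 48.4 CPM with DMSO, 77.6, 86.7 and 80.2 with niraparib and 87.7, 80.1 and 75.7 with olaparib. Both drugs raised it there too, with log2 fold changes of 0.74 (SE 0.067, adjusted P = 5.8e-06, edgeR) and 0.73 (SE 0.067, adjusted P = 2.6e-06, edgeR), and the libraries of the 2 drugs overlapped. The difference between the drugs in PARP1 KO was 0.012 on the log2 scale, with a 95% interval from -0.13 to 0.15. DUSP1 was called with each drug in each genotype in every fit that left out 1 library.

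Other fast-responding genes were measured in the same libraries. The summed level of 12 immediate early genes, those that respond within minutes to growth factors, stress or handling, ran from 648 to 775 CPM in the WT DMSO libraries, from 1048 to 1111 CPM with niraparib and from 957 to 1009.8 CPM with olaparib. In PARP1 KO it ran from 665 to 775 CPM, from 904 to 982 CPM and from 886 to 938 CPM in the same order. In both genotypes every drug library lay above every DMSO library on this sum, and part of its genes were called. With niraparib these were 3 of 12 in WT and 1 of 12 in PARP1 KO, where 13.8% and 0.0136% of all genes were called, and with olaparib 4 and 2 of 12, where 4.04% and 0.803% were called. ATF3 had 55.4 ± 5.01 CPM with DMSO and 195 ± 20.1 with niraparib in WT (SD, n = 3), and JUN 177 ± 21.2 and 313 ± 6.13. EGR1 had 10.4 ± 2.29 and 10.03 ± 0.397 CPM there, and CCN1 237 ± 23.6 and 248 ± 7.80. The part of these genes in the DUSP1 result was not tested.

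DUSP4, or MKP-2, is a close nuclear relative of DUSP1 with the same range of substrates. DUSP4 (ENSG00000120875) is encoded on the minus strand of chromosome 8, GRCh38 bases 29333064 to 29350684. It had 178, 169.5 and 162 CPM in WT with DMSO, 93.6, 76.7 and 96.1 with niraparib and 121, 138 and 134 with olaparib. The 3 groups did not overlap, and niraparib was lowest, the opposite order to DUSP1. The log2 fold change with niraparib was -0.94 (SE 0.079, adjusted P = 5.5e-07, edgeR), and the level with niraparib was 0.523 times that with DMSO. Olaparib lowered it by less than 1.5-fold, at -0.37 (SE 0.079, adjusted P = 0.0047, edgeR), and niraparib lay below olaparib by -0.56 (SE 0.079, adjusted P = 9.2e-05, edgeR) on the log2 scale, just short of 1.5-fold. Without niraparib replicate 1, niraparib replicate 3 or olaparib replicate 1 that last difference was called, at -0.61, -0.62 and -0.62 on the log2 scale. In PARP1 KO, DUSP4 had 173, 167 and 161 CPM with DMSO, 139, 143 and 139 with niraparib and 138, 164 and 156 with olaparib. The niraparib libraries lay below the DMSO libraries, with a log2 fold change of -0.25 (SE 0.056, adjusted P = 0.087, edgeR) that missed the threshold. It was -0.13 (SE 0.056, adjusted P = 0.17, edgeR) with olaparib, whose libraries overlapped those with DMSO. Without PARP1 KO olaparib replicate 1 the adjusted P value of the niraparib change was 0.019 and with only the 6 libraries compared 0.046 (edgeR), and with DESeq2 it was 0.029 (adjusted P), at -0.25 on the log2 scale in all 3. Without a filter on low counts it was 0.0023 (edgeR), at -0.26.

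DUSP5 is a nuclear phosphatase that acts on ERK and holds it in the nucleus. DUSP5 (ENSG00000138166) is encoded on the plus strand of chromosome 10, GRCh38 bases 110497907 to 110511533. Its WT libraries had 16.8, 16.9 and 15.5 CPM with DMSO, 26.2, 26.2 and 26.1 with niraparib and 21.9, 20.04 and 21.1 with olaparib. These 3 groups again did not overlap, with niraparib highest. The log2 fold change was 0.67 (SE 0.069, adjusted P = 6.3e-08, edgeR) with niraparib and 0.36 (SE 0.07, adjusted P = 7.6e-04, edgeR) with olaparib, the latter below 1.5-fold. Niraparib was 0.31 above olaparib on the log2 scale (SE 0.068, adjusted P = 0.0011, edgeR), also below 1.5-fold. In PARP1 KO, DUSP5 had 21.9, 18.9 and 17.2 CPM with DMSO, 17.7, 19.2 and 17.8 with niraparib and 14.4, 18.6 and 16.3 with olaparib. All 3 groups overlapped there, and the log2 fold changes were -0.08 (SE 0.097, adjusted P = 0.86, edgeR) and -0.24 (SE 0.097, adjusted P = 0.15, edgeR).

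DUSP6, or MKP-3, is the cytoplasmic phosphatase that is selective for ERK, and its transcript is widely used as a readout of ERK activity. DUSP6 (ENSG00000139318) is encoded on the minus strand of chromosome 12, GRCh38 bases 89347235 to 89352501. Its 250 bases before the RefSeq start (chr12:89352502-89352751 of GRCh38.p14, minus strand, 5′ to 3′) are shown beside those of DUSP1 because DUSP6 did not follow DUSP1 in WT cells.
DUSP6: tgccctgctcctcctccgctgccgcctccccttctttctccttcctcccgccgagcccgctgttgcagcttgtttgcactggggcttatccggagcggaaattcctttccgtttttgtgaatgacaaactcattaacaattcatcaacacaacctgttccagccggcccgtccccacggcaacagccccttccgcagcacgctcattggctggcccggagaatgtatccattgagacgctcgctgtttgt
None of the 4 motifs searched had a match in the promoter of DUSP6 in the RefSeq table, so no letter is in capitals, and nothing is drawn from this about any factor. At least 1 match was found in 10.3% of the 35116 promoters for the ETS motif, in 7.71% for the AP-1 motif and in 1.29% for the serum response element. Of the 10 genes, 6 have a promoter in that table, and the 2 other genes with a match were SPRY2 and SPRY4, each with 1 match to TGACG.

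DUSP6 had 34.7, 28.4 and 24.6 CPM in WT with DMSO, 26.03, 28.9 and 24.9 with niraparib and 24.02, 26.6 and 26.003 with olaparib. The groups overlapped, and the highest of the 9 libraries was a DMSO library. The log2 fold changes were -0.13 (SE 0.1, adjusted P = 0.37, edgeR) and -0.19 (SE 0.1, adjusted P = 0.25, edgeR). Without WT DMSO replicate 3 they were -0.24 (adjusted P = 0.040, edgeR) and -0.30 (adjusted P = 0.028), and without WT DMSO replicate 1 the niraparib value was 0.0058. In PARP1 KO cells DUSP6 had 27.9, 27.7 and 23.7 CPM with DMSO, 37.5, 36.8 and 41.8 with niraparib and 26.9, 31.04 and 35.8 with olaparib. The niraparib libraries were the highest of all and did not overlap those with DMSO or olaparib. The log2 fold change with niraparib was 0.56 (SE 0.094, adjusted P = 0.03, edgeR), just below 1.5-fold, and the difference from olaparib was 0.32 (SE 0.094, adjusted P = 0.039, edgeR). By the call rule neither was called. The adjusted P value of the niraparib change was 0.059 with filterByExpr, 0.065 with the replicate number as a block and 0.064 in a fit of all 18 libraries (edgeR), and that of the difference from olaparib was 0.054 with the block, 0.11 with all 18 libraries and 0.072 with only the 6 libraries compared. With DESeq2 the niraparib change had an adjusted P value of 6.5e-05. The values also turned on single libraries: the niraparib change lost an adjusted P value below 0.05 in 7 of 9 fits that left out 1 library, the highest being 0.20 without PARP1 KO DMSO replicate 3 (log2 fold change 0.48). The other 6 were the fits without DMSO replicates 1 and 2, niraparib replicates 1, 2 and 3 and olaparib replicate 2, at log2 fold changes from 0.49 to 0.60. The difference from olaparib lost it in 7 of 9, those without DMSO replicates 1 and 2, niraparib replicates 1, 2 and 3 and olaparib replicates 1 and 2, with adjusted P up to 0.14 (edgeR) and log2 differences from 0.22 to 0.35.

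SPRY2 and SPRY4 are Sprouty proteins, which dampen signalling between receptor tyrosine kinases and ERK. SPRY2 (ENSG00000136158) is encoded on the minus strand of chromosome 13, GRCh38 bases 80335976 to 80341126. SPRY2 had 10.5, 11.2 and 10.4 CPM in WT with DMSO, 7.77, 8.16 and 8.32 with niraparib and 9.69, 8.99 and 9.30 with olaparib. The 3 groups did not overlap, and niraparib was lowest. It fell with niraparib by less than 1.5-fold, at -0.41 (SE 0.093, adjusted P = 0.0012, edgeR), and was -0.20 (SE 0.093, adjusted P = 0.16, edgeR) with olaparib. Its PARP1 KO libraries had 10.9 to 13.2 CPM with DMSO, 10.97 to 11.5 with niraparib and 10.4 to 12.1 with olaparib, and overlapped between the groups.

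SPRY4 (ENSG00000187678) is encoded on the minus strand of chromosome 5, GRCh38 bases 142310427 to 142326455. It was the least counted of the genes that were called, with 3 to 116 counts per library. In WT it had 0.10003, 0.620 and 0.648 CPM with DMSO, 2.41, 2.09 and 2.15 with niraparib and 0.803, 0.813 and 1.43 with olaparib. All niraparib libraries lay above all others, and the first DMSO library, with 3 counts, lay far below the other DMSO libraries. The log2 fold change with niraparib was 2.18 (SE 0.37, adjusted P = 1.1e-04, edgeR), the largest of the 10 genes on this scale. Without WT DMSO replicate 1 it was 1.79 (adjusted P = 8.5e-06, edgeR). With olaparib it was 1.05 (SE 0.39, adjusted P = 0.076, edgeR), which passed with DESeq2 (1.08, adjusted P = 0.039) and without a filter on low counts (1.04, adjusted P = 0.0074, edgeR). Niraparib exceeded olaparib by 1.13 (SE 0.34, adjusted P = 0.016, edgeR) on the log2 scale, a call that was lost without niraparib replicate 1 (1.06, adjusted P = 0.057, edgeR), olaparib replicate 1 (0.99, adjusted P = 0.088) or olaparib replicate 2 (0.996, adjusted P = 0.087). In PARP1 KO, SPRY4 had 0.959, 0.359 and 0.898 CPM with DMSO, 1.82, 1.45 and 1.18 with niraparib and 0.468, 0.847 and 0.886 with olaparib. The niraparib libraries were again above the others, with log2 differences of 0.98 (SE 0.33, adjusted P = 0.32, edgeR) from DMSO and 1.02 (SE 0.33, adjusted P = 0.054, edgeR) from olaparib. Neither passed. The difference from olaparib did so without PARP1 KO DMSO replicate 2 (1.003, adjusted P = 0.043, edgeR) or niraparib replicate 3 (1.17, adjusted P = 0.038).

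SPRED1 is a Sprouty-related protein that brings neurofibromin to RAS at the membrane. SPRED1 (ENSG00000166068) is encoded on the plus strand of chromosome 15, GRCh38 bases 38252836 to 38357249. It had 12.4, 11.2 and 12.01 CPM in WT with DMSO, 13.3, 13.6 and 13.8 with niraparib and 13.8, 14.2 and 12.5 with olaparib. The libraries of both drugs lay above those with DMSO, yet by little, with log2 fold changes of 0.19 (SE 0.083, adjusted P = 0.075, edgeR) and 0.19 (SE 0.084, adjusted P = 0.12, edgeR). Over all PARP1 KO libraries SPRED1 lay between 12.5 and 13.9 CPM. The 95% interval of its log2 fold change with niraparib in WT ran from 0.0196 to 0.36.

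ETV4 and ETV5 belong to the PEA3 group of ETS transcription factors. ETV4 (ENSG00000175832) is encoded on the minus strand of chromosome 17, GRCh38 bases 43527844 to 43579620. ETV5 (ENSG00000244405) is encoded on the minus strand of chromosome 3, GRCh38 bases 186046314 to 186110318. ETV4 had 19 to 72 counts per library and ETV5 had 2 to 22, so only large changes could be detected. In WT, ETV4 ranged from 0.989 to 1.05 CPM with DMSO, from 0.565 to 1.30 with niraparib and from 0.952 to 1.41 with olaparib. ETV5 ranged from 0.155 to 0.424, from 0.327 to 0.370 and from 0.0813 to 0.667 CPM in the same order. In PARP1 KO, ETV4 ranged from 0.517 to 1.21, from 0.769 to 1.16 and from 0.673 to 0.988 CPM, and ETV5 from 0.137 to 0.555, from 0.245 to 0.521 and from 0.0681 to 0.299 CPM. The groups overlapped throughout. With niraparib in WT, the 95% interval of the log2 fold change ran from -0.53 to 0.67 for ETV4 and from -0.81 to 1.55 for ETV5. Of the exon bases of ETV5, 2.84% are also exons of DGKG or Metazoa_SRP on the same strand, where reads were not counted.

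PHLDA1 is a pleckstrin homology-like domain protein whose transcript is induced when ERK is active. PHLDA1 (ENSG00000139289) is encoded on the minus strand of chromosome 12, GRCh38 bases 76025447 to 76033932. It had 176, 157 and 146 CPM in WT with DMSO, 101, 86.5 and 98.3 with niraparib and 107, 111 and 105 with olaparib. The 3 groups did not overlap, and both drug groups lay below DMSO. The log2 fold change was -0.75 (SE 0.067, adjusted P = 8.0e-08, edgeR) with niraparib and -0.56 (SE 0.067, adjusted P = 1.3e-05, edgeR) with olaparib, the latter just short of 1.5-fold and called without WT DMSO replicate 3, at -0.63. The drugs differed by -0.18 (SE 0.067, adjusted P = 0.048, edgeR), and this difference no longer passed in 6 fits that left out 1 library, those without DMSO replicate 2, niraparib replicate 2 or 3, or olaparib replicate 1, 2 or 3, with adjusted P up to 0.18 (edgeR) and values from -0.20 to -0.12. Nor did it pass with RLE size factors (adjusted P = 0.058), filterByExpr (0.055), a fit of all 18 libraries (0.24) or DESeq2 (0.053). In PARP1 KO, PHLDA1 had 194, 168 and 159 CPM with DMSO, 159.8, 155 and 179.7 with niraparib and 135, 164 and 171 with olaparib. The groups overlapped, with log2 fold changes of -0.069 (SE 0.1, adjusted P = 0.9, edgeR) and -0.15 (SE 0.1, adjusted P = 0.49, edgeR).

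Set side by side in WT, olaparib called 1 of the 10 genes, DUSP1, where 4.04% of all genes tested were called, and 4 genes had an adjusted P value below 0.05, DUSP1, DUSP4, DUSP5 and PHLDA1 (19% of all genes). Niraparib and olaparib share the DMSO libraries, so their own values stand beside each other: 1.42 and 0.75 for DUSP1, -0.94 and -0.37 for DUSP4, 0.67 and 0.36 for DUSP5, 2.18 and 1.05 for SPRY4, and -0.75 and -0.56 for PHLDA1, on the log2 scale. Tested directly at the same dose and time, the 2 drugs differed in 2 of the 10 genes by the call rule, DUSP1 and SPRY4, both higher with niraparib, where 8.95% of all genes were called. An adjusted P value below 0.05 was found for 5 (32.2% of all genes), the other 3 being DUSP4, DUSP5 and PHLDA1, at less than 1.5-fold, and that of PHLDA1 was lost in the fits named above. In PARP1 KO, olaparib called 1 of the 10 genes, DUSP1 (0.803% of all genes), and 0 of the 10 were called between the drugs with edgeR, where 1.07% of all genes were called. In that comparison 3 had an unadjusted P value below 0.05 (22.1% of all genes), DUSP4, DUSP6 and SPRY4, and DESeq2 also called 0.

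**Figure D2:**
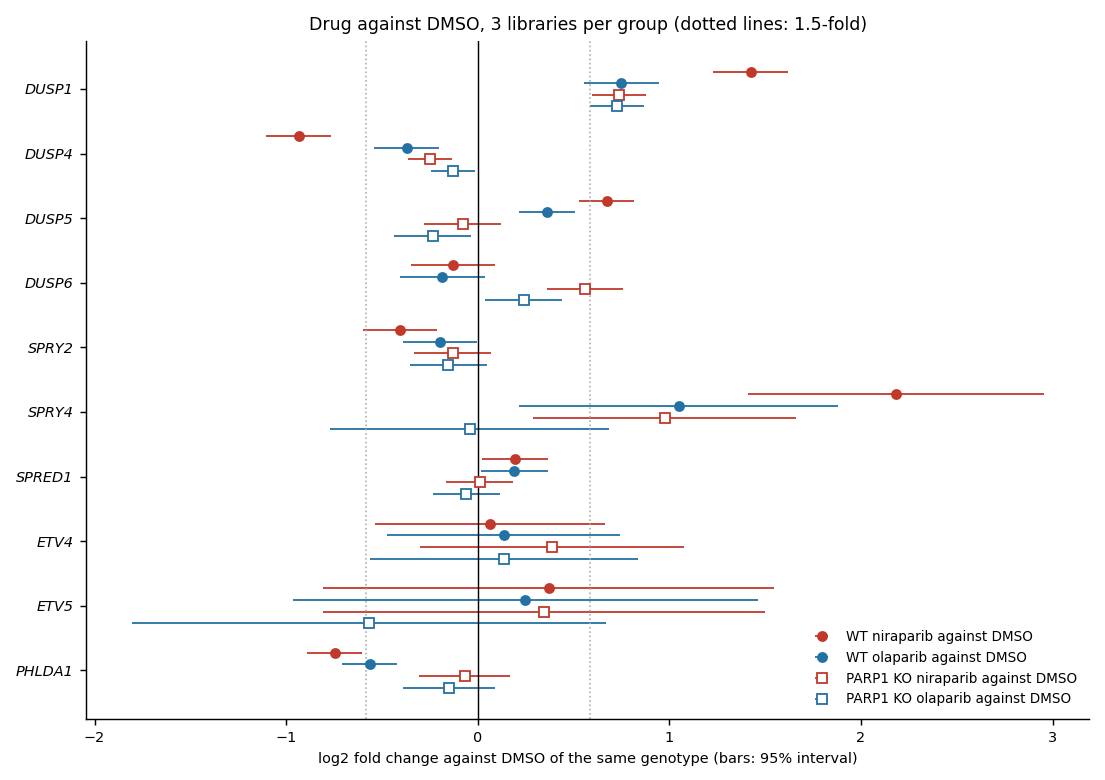
Log2 fold change against DMSO of the same genotype (horizontal axis) for the 10 genes (rows), with 95% intervals as bars and dotted lines at 1.5-fold (red niraparib, blue olaparib; filled circles WT, open squares PARP1 KO; 3 libraries per group). For DUSP1 all 4 intervals lie above 0, while DUSP4, DUSP5 and PHLDA1 lie farthest from 0 with niraparib in WT.

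Without drug, comparing PARP1 KO with WT in DMSO, 0 of the 10 genes were called with edgeR or DESeq2, where 0.146% of all 24675 genes tested were called by edgeR. An unadjusted P value below 0.05 was found for 3 (13.6% of all genes), DUSP1 at -0.19, DUSP5 at 0.24 and SPRY2 at 0.20 on the log2 scale, with adjusted P = 0.33, 0.18 and 0.33 (edgeR). The libraries of DUSP5 and SPRED1 did not overlap between the genotypes and were higher in PARP1 KO, by 0.16 (adjusted P = 0.37, edgeR) on the log2 scale for SPRED1. Neither difference passed. The share of all genes without overlap was not taken for this comparison, so no genotype difference is drawn from it. For the genes with few counts the intervals were wide: the 95% interval of the log2 difference ran from -0.22 to 1.48 for SPRY4, from -1.05 to 0.25 for ETV4 and from -1.07 to 1.35 for ETV5. Without WT DMSO replicate 3 the DUSP1 difference was -0.29 (adjusted P = 0.049, edgeR).

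The responses to niraparib differed between the genotypes in both directions. The genotype by niraparib interaction, the change in PARP1 KO minus the change in WT, was called for 5 of the 10 genes, where 8.88% of all genes were called. For DUSP1 and DUSP5 the change was lower in PARP1 KO than in WT, with interactions of -0.69 (SE 0.12, adjusted P = 1.9e-04, edgeR) and -0.76 (SE 0.12, adjusted P = 6.7e-06, edgeR). For DUSP4 and PHLDA1 it was higher, with 0.68 (SE 0.1, adjusted P = 1.8e-05, edgeR) and 0.67 (SE 0.14, adjusted P = 0.0031, edgeR). DUSP6, which was not called with niraparib in either genotype, had an interaction of 0.68 (SE 0.17, adjusted P = 0.006, edgeR). Without WT niraparib replicate 2 the DUSP4 interaction was 0.58, and without WT DMSO replicate 1 that of DUSP6 was 0.55, both then short of 1.5-fold, with adjusted P values still under 0.05. SPRY4 had the largest interaction in size, -1.22 (SE 0.53, adjusted P = 0.11, edgeR), which did not pass, and passed without a filter on low counts (-1.22, adjusted P = 0.023, edgeR) or without PARP1 KO DMSO replicate 2 (-1.52, adjusted P = 0.031, edgeR). For olaparib the interaction was called for 1 of the 10 genes, DUSP5, at -0.59 (SE 0.12, adjusted P = 0.0042, edgeR), where 0.657% of all genes were called. That value lies close to 1.5-fold, and it fell short of it without PARP1 KO DMSO replicate 1 (-0.49), PARP1 KO olaparib replicate 1 (-0.50), WT DMSO replicate 3 (-0.55) or WT olaparib replicate 1 (-0.56), with adjusted P at most 0.030 (edgeR). For DUSP1 the olaparib interaction was -0.019, with a 95% interval from -0.27 to 0.23.

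**Figure D3:**
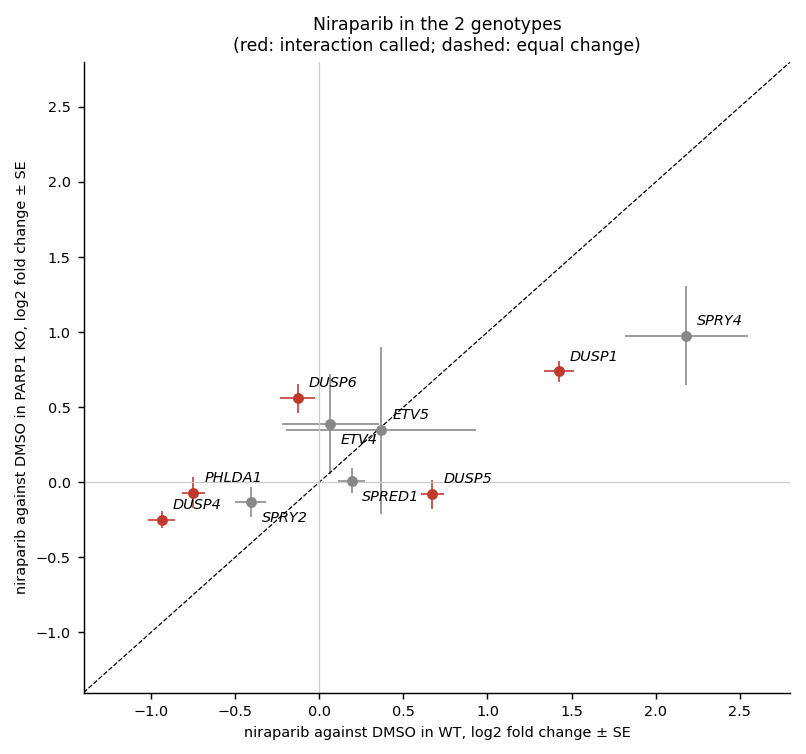
Log2 fold change with niraparib in WT (horizontal axis) and in PARP1 KO (vertical axis), each against DMSO of the same genotype, as points with SE bars (3 libraries per group). The dashed line marks equal change, and red points are the 5 genes whose interaction was called: DUSP1 and DUSP5 lie below the line, and DUSP4, PHLDA1 and DUSP6 above it.

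Across the 18 libraries, the 10 genes did not move as one block. The log2 CPM of DUSP4 had a Pearson correlation of 0.86 with PHLDA1 and 0.82 with SPRY2, and SPRY2 one of 0.91 with PHLDA1. DUSP1 correlated negatively with DUSP4 (-0.92), PHLDA1 (-0.83) and SPRY2 (-0.82) and positively with DUSP5 (0.67) and SPRY4 (0.64). DUSP6 had correlations between -0.29 and 0.53 with the other 9 genes. These values describe points that share treatments, so no P value is given. Of all genes that averaged 1 CPM or more, the closest to DUSP1 by this measure were TRAK1 (0.95), LAT2 (0.95) and KCNG1 (0.95), and the closest to DUSP4 were KAZALD1 (0.97), GPR37L1 (0.97) and TPRN (0.97). DUSP5 was closest to the cell cycle factor E2F1 (0.93), the nuclease AEN (0.92) and the replicative helicase subunit MCM7 (0.91). PHLDA1 was closest to TRIM25 (0.98), the progesterone receptor gene PGR (0.97) and STC1 (0.97), and SPRY2 to IRX3 (0.94), STC2 (0.93) and HNRNPDL (0.93). DUSP6 was closest to ABCA7 (0.87), RIPOR3 (0.85) and PIEZO1 (0.85), and SPRY4 to ENTPD3 (0.93), OTULINL (0.90) and UBE2D4 (0.89). The closest genes to SPRED1, ETV4 and ETV5 reached 0.79 (CTNNAL1), 0.70 (WASHC1) and 0.65 (TTLL5). Every closest gene was picked from 13487 genes or more, so these values are high in part by choice. ETV4 and ETV5 also had few counts.

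Relatives of the 10 genes and further negative regulators of the pathway were called in both directions with niraparib in WT. Of 15 such genes, 4 were called higher and 2 lower, where 8.1% and 5.72% of all genes were, with a median log2 fold change of 0.45 beside -0.025 over all genes. DUSP10, a phosphatase of p38 and JNK, rose by 1.86 (SE 0.1, adjusted P = 3.1e-12) on the log2 scale, and DUSP8, of the same kind, by 1.16 (SE 0.068, adjusted P = 1.0e-11). The ERK phosphatase DUSP2 rose by 0.69 (SE 0.17, adjusted P = 0.0027) and PHLDA3, an inhibitor of AKT, by 0.66 (SE 0.051, adjusted P = 9.0e-10). LRIG1, which promotes degradation of ERBB receptors, was called lower at -0.77 (SE 0.049, adjusted P = 4.3e-11), and SPRED3 at -0.70 (SE 0.14, adjusted P = 4.7e-04). In PARP1 KO with niraparib 0 of the 15 were called or had an adjusted P value below 0.05 (edgeR), and 3 had an unadjusted P value below 0.05 (9.14% of all genes). The niraparib interaction was called for 6 of the 15 (8.88% of all genes), among them DUSP10 at -1.52 (SE 0.16, adjusted P = 4.9e-09) and LRIG1 at 0.64 (SE 0.067, adjusted P = 2.5e-09). DUSP9, which was not called in WT, had -1.93 (SE 0.7, adjusted P = 0.042), close to the threshold and from very few reads. Its means were 0.30 CPM with DMSO and 0.59 with niraparib in WT, and 0.43 and 0.23 CPM in PARP1 KO. With olaparib in WT 1 of the 15 was called (4.04% of all genes), DUSP2 at 0.84 (SE 0.17, adjusted P = 0.0014).

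The core of the cascade was described by 25 genes for receptors, adaptors, RAS, RAF, MEK, ERK and their scaffolds. With niraparib in WT, 3 were called higher and 1 lower, where 13.8% of all genes tested were called. An adjusted P value below 0.05 was found for 14 of the 25 (8 higher, 6 lower), where 38% of all genes had one, and the median log2 fold change was -0.063. The scaffold KSR1 rose by 1.37 (SE 0.13, adjusted P = 3.3e-08), the kinase BRAF by 0.64 (SE 0.058, adjusted P = 9.4e-09) and the adaptor GAB1 by 0.60 (SE 0.057, adjusted P = 2.2e-08). The receptor ERBB3 was called lower, at -0.86 (SE 0.055, adjusted P = 5.6e-11). MAPK3, which encodes an ERK kinase, had a log2 fold change of -0.23 (SE 0.055, adjusted P = 0.0022) and was not called. With olaparib in WT, KSR1 was the 1 gene of the 25 called (4.04% of all genes), at 0.71 (SE 0.14, adjusted P = 8.5e-04). In PARP1 KO 0 of the 25 were called with niraparib or with olaparib (edgeR), and 2 and 7 had an unadjusted P value below 0.05, in that order (9.14% and 21.1% of all genes). The niraparib interaction was called for 3 of the 25 (8.88% of all genes), KSR1, BRAF and ERBB3, at -1.13, -0.68 and 0.80.

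Among 12 genes known to rise with ERK activity, 5 were called higher and 1 lower with niraparib in WT, where 8.1% and 5.72% of all genes were, with a median log2 fold change of 0.37. The cytokine LIF rose by 3.05 (SE 0.27, adjusted P = 1.0e-08), the AP-1 component FOSL1 by 2.18 (SE 0.41, adjusted P = 1.9e-04), and the ephrin receptors EPHA2 and EPHA4 by 1.60 (SE 0.085, adjusted P = 2.4e-12) and 1.04 (SE 0.081, adjusted P = 1.1e-09). VGF, also called higher, had 1.11 (SE 0.3, adjusted P = 0.0052). CCND1, which encodes cyclin D1, was called lower at -1.06 (SE 0.06, adjusted P = 1.9e-11). With olaparib in WT 2 of the 12 were called higher, LIF at 1.45 (SE 0.3, adjusted P = 0.0014) and EGR1 at 1.16 (SE 0.14, adjusted P = 1.3e-04), and 2 lower, CCND1 at -0.77 (SE 0.06, adjusted P = 2.3e-08) and MYC at -0.63 (SE 0.074, adjusted P = 1.9e-05), where 4.04% of all genes were called. Between the drugs in WT 7 of the 12 were called (8.95% of all genes), 6 higher with niraparib, among them LIF at 1.60 (SE 0.24, adjusted P = 1.9e-05), and EGR1 lower at -1.21 (SE 0.14, adjusted P = 3.0e-05). In PARP1 KO with niraparib 1 of the 12 was called (0.0136% of all genes), FOS at 0.88 (SE 0.075, adjusted P = 8.2e-06). FOS is also the immediate early gene called there, so both lists count the same call. The interaction was called for 5 of the 12 (8.88% of all genes), with LIF at -2.25 (SE 0.47, adjusted P = 3.6e-04), EPHA2 at -1.46 (SE 0.13, adjusted P = 7.5e-11), VGF at -1.36 (SE 0.48, adjusted P = 0.038), EPHA4 at -0.87 (SE 0.12, adjusted P = 8.3e-07) and CCND1 at 0.98 (SE 0.098, adjusted P = 6.6e-08).

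**Figure D4:**
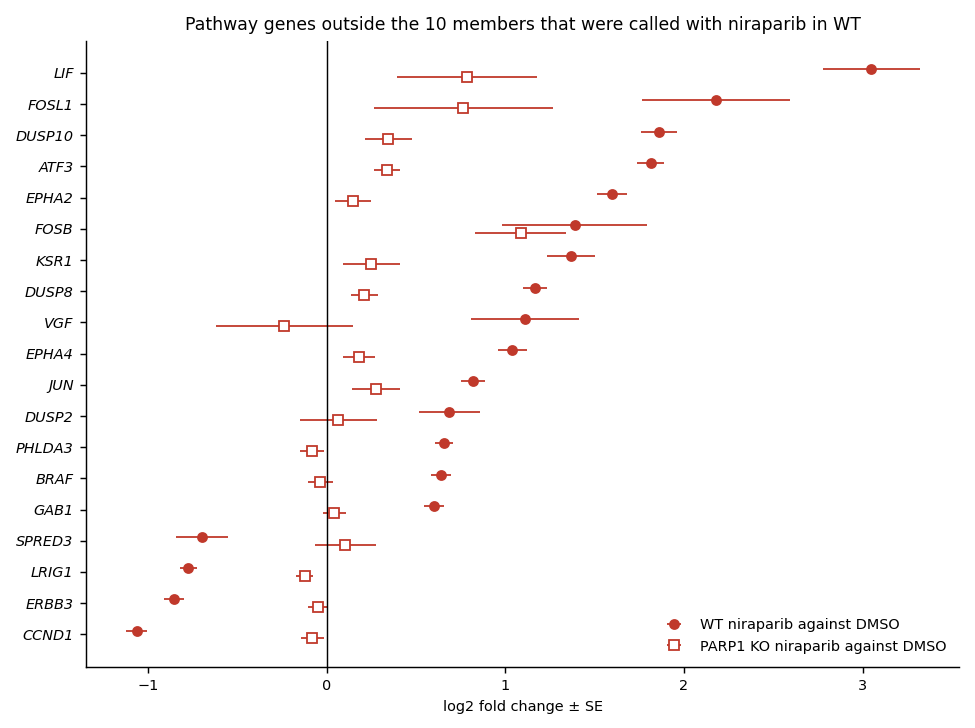
Log2 fold change with niraparib (horizontal axis, bars SE) of the 19 genes of the pathway and immediate early lists, outside the 10, that were called with niraparib in WT (filled circles WT, open squares PARP1 KO; 3 libraries per group). The genes were picked by their WT values, from CCND1 at -1.06 to LIF at 3.05, so the WT values are farther from 0 by choice.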

How the data were processed

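RNA of T47D cells labelled WT or PARP1 KO, treated with DMSO, niraparib or olaparib, was sequenced by the authors in 18 libraries. The authors deposited raw counts per gene: reads were trimmed with Trimmomatic, mapped to GRCh38 with STAR, passed through Picard MarkDuplicates and counted on exons, reverse strand and primary alignments only, with featureCounts 2.0.0 and the Ensembl release 96 annotation. The methods describe the duplicates as identified and quantified, and the count command in the file headers names its output deduplicated. Reads on exons of more than 1 gene of a strand were not counted. Labels and methods differ on RNA input, medium and extraction kit.

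Of 58884 identifiers, 58472 matched a symbol. The quasi-likelihood F test of edgeR 4.0.16 (R 4.3.3, TMM, robust) was run on every gene whose libraries summed to over 10 counts, with Benjamini-Hochberg adjustment over all genes of the fit. Each genotype was fitted alone (9 libraries), and genotypes were compared in a fit of all 18. SE was taken as |log2 fold change| over the square root of F. Biological coefficients of variation were 7.04% in WT, 7.42% in PARP1 KO and 7.24% over all libraries. With 3 libraries against 3, an exact permutation test cannot go below P = 0.1, so calls rest on the model. The methods describe 3 dishes per condition for these experiments but do not tie a library to a dish, so P values measure the spread between libraries, which may be technical. The 18 pairs of libraries within groups differed by more than sampling noise (chi-square per gene from 3.00 to 17.3).

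The members and the gene lists were chosen with earlier results of these data known. Genes named are the 10 members, PARP1, the called genes with the largest change of each list (up to 4 a list and comparison) and the 3 genes most like each member; further genes of the lists (among them MAPK3, DUSP9 and VGF) were named after their values were seen. Alternatives were RLE size factors, filterByExpr or no filter, DESeq2 1.42.0, a block for replicate number, other sets of libraries in the fit, 2 other call rules and each library left out. The scripts were tested on simulated counts. Promoter sequences come from RefSeq (GRCh38.p14), and gene positions from the deposited files.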

Additional observations from a re-analysis of the deposited data

Results flagged for a closer look

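The response to niraparib differed between the genotypes for 5 of the 10 genes by a test of the difference itself, where 8.88% of all genes were called. The change in PARP1 KO minus the change in WT is given on the log2 scale. The values were -0.69 for DUSP1, -0.76 for DUSP5, 0.68 for DUSP4, 0.68 for DUSP6 and 0.67 for PHLDA1, with SE from 0.1 to 0.17 and adjusted P from 6.7e-06 to 0.006 (edgeR). For DUSP6 the WT change was -0.13 and the PARP1 KO change 0.56, and neither was called. The response to olaparib differed in the same sense for DUSP5, at -0.59 (SE 0.12, adjusted P = 0.0042, edgeR), where 0.657% of all genes were called. The DUSP5 change with olaparib was 0.36 in WT and -0.24 in PARP1 KO. DUSP5 was thus the one of the 10 genes whose interaction was called with both drugs, and both interactions share the DMSO libraries of each genotype. Its olaparib call was kept in 14 of 18 fits that left out 1 library, and was lost with filterByExpr (-0.58). Without WT DMSO replicate 1, WT niraparib replicate 2 or PARP1 KO niraparib replicate 3, the libraries that stood apart in their groups, the DUSP6 niraparib interaction was 0.55, 0.74 and 0.62 (adjusted P = 0.0038, 0.0082 and 0.019, edgeR). At 0.55 it fell short of 1.5-fold and was not called. The same held for the DUSP4 niraparib interaction without WT niraparib replicate 2, at 0.58.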

How the results depend on the processing

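Of the 90 values of the 10 genes (10 genes, 9 comparisons), 16 were called, and 12 of the 16 kept it under the same call rule in every alternative fit; the 4 that did not are given beside their results (SPRY4 between the drugs in WT, the DUSP4 and DUSP6 niraparib interactions and the DUSP5 olaparib interaction). No call changed sign. Sign changes were seen in 59 of 1680 recomputed values, none of them called, the lowest adjusted P among them being 0.50 (edgeR). Of these, 57 came from leaving out 1 library; the other 2 were SPRED1 with niraparib in PARP1 KO without a filter, at -1.8e-04, and DUSP1 between the drugs in PARP1 KO with only the 6 libraries compared, at -0.0021. Leaving out each library, the log2 values whose sign changed ranged, with niraparib in WT, from -0.24 to 0.0058 for DUSP6 and -0.13 to 0.33 for ETV4. With olaparib in WT they ranged from -0.078 to 0.23 for ETV4 and -0.74 to 0.75 for ETV5, and between the drugs in WT from -0.0057 to 0.11 for DUSP6, -0.0499 to 0.039 for SPRED1, -0.26 to 0.19 for ETV4 and -0.35 to 1.11 for ETV5. With niraparib in PARP1 KO they ranged from -0.16 to 0.015 for DUSP5, -0.018 to 0.031 for SPRED1, -0.011 to 1.06 for ETV5 and -0.14 to 0.015 for PHLDA1, and with olaparib from -0.35 to 0.20 for SPRY4, -0.079 to 0.59 for ETV4 and -1.03 to 0.16 for ETV5. Between the drugs in PARP1 KO they ranged from -0.035 to 0.072 for DUSP1, -0.016 to 0.087 for SPRY2 and -0.016 to 0.15 for PHLDA1, and between genotypes in DMSO from -0.055 to 0.013 for DUSP4 and -0.59 to 0.64 for ETV5. For the niraparib interaction the range was -0.53 to 0.70 for ETV5, and for the olaparib interaction -0.11 to 0.078 for DUSP1, -0.035 to 0.099 for SPRY2, -0.22 to 0.45 for ETV4 and -1.31 to 0.17 for ETV5. The cause was not tested.

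Counts moved mainly with the call rule. By the adjusted P value alone, the genes called in WT numbered 8530 with niraparib, 4270 with olaparib and 7232 between them, 24, 1827 and 2203 in PARP1 KO, 344 between genotypes, and 5661 and 559 for the niraparib and olaparib interactions. With an absolute log2 fold change above 1.5 these numbers were 709, 153, 367, 0, 21, 24, 3, 457 and 30. Of the 10 genes, the adjusted P value alone gave 4 with olaparib and 5 between the drugs in WT, and 2 with niraparib and 1 between the drugs in PARP1 KO. The larger fold left 1 with niraparib in WT, SPRY4, and 0 with olaparib or between the drugs in WT, with either drug in PARP1 KO and for both interactions. Without a filter on low counts, 24 genes were called with niraparib in PARP1 KO, 102 between genotypes and 346 for the olaparib interaction, and of the 10 genes 2 with olaparib in WT and 1 between the drugs in PARP1 KO. DESeq2 called 7 genes with niraparib in PARP1 KO and 2 of the 10 with olaparib in WT. A fit of all 18 libraries called 6 genes with niraparib in PARP1 KO, and filterByExpr left 0 of the 10 for the olaparib interaction. Leaving out each library gave 1 to 2 of the 10 genes with olaparib and 1 to 3 between the drugs in WT, 0 to 1 between the drugs in PARP1 KO and 0 to 1 for the olaparib interaction. Over all genes it gave 100 to 236 with olaparib (lowest without PARP1 KO DMSO replicate 2) and 144 to 281 between the drugs in PARP1 KO (lowest without niraparib replicate 2), 5 to 46 between genotypes (lowest without WT DMSO replicate 1) and 86 to 273 for the olaparib interaction (lowest without WT DMSO replicate 1, highest without PARP1 KO olaparib replicate 1). The cause was not tested.

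The replicate numbers of the labels did not pair the libraries: deviations of libraries with the same number correlated above 0.1 in 3 of 9 pairs within WT and 2 of 9 within PARP1 KO, and 4 of 18 libraries correlated best with their own number. With the replicate number as a block, 2920 genes were called with niraparib in WT against 3102 without it, and 0 of the 90 calls of the 10 genes changed, while DUSP6 lost an adjusted P value below 0.05 with niraparib in PARP1 KO (0.065) and between the drugs there (0.054). The low counts of SPRY4, ETV4 and ETV5 limit what could be detected for them.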

Other observations

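Immediate early genes, those that respond within minutes to growth factors, stress or handling, were also measured. Of 12, niraparib in WT called 3 (13.8% of all genes), all higher: ATF3 at 1.81 (SE 0.076, adjusted P = 5.6e-11), FOSB at 1.39 (SE 0.41, adjusted P = 0.038) and JUN at 0.82 (SE 0.067, adjusted P = 3.5e-08) on the log2 scale (edgeR). Olaparib in WT called 4 (4.04% of all genes), all higher: EGR1 at 1.16 (SE 0.14, adjusted P = 1.3e-04), ATF3 at 0.91 (SE 0.075, adjusted P = 9.0e-07), JUNB at 0.83 (SE 0.062, adjusted P = 5.8e-09) and NR4A1 at 0.76 (SE 0.071, adjusted P = 1.6e-07). EGR1, a zinc finger factor that ERK induces, was -0.049 (SE 0.15, adjusted P = 0.84) with niraparib, and the difference between the drugs was -1.21 (SE 0.14, adjusted P = 3.0e-05). With DMSO alone EGR1 had 10.4 ± 2.29 CPM in WT and 20.04 ± 4.59 in PARP1 KO (SD, n = 3), a log2 difference of 0.95 (SE 0.2, adjusted P = 0.045, edgeR), close to the threshold. It was the 1 gene of the 12 called between the genotypes there (0.146% of all genes), and it is also on the list of genes known to rise with ERK activity. In PARP1 KO, niraparib called 1 of the 12 (0.0136% of all genes), FOS at 0.88 (SE 0.075, adjusted P = 8.2e-06). Olaparib called 2 there (0.803% of all genes), FOS at 0.76 (SE 0.075, adjusted P = 2.2e-05) and FOSB at 1.03 (SE 0.25, adjusted P = 0.049). FOS, too, is on the list of genes known to rise with ERK activity. The niraparib interaction was called for 1 of the 12 (8.88% of all genes), ATF3, at -1.48 (SE 0.12, adjusted P = 2.7e-08).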
